A study of Mus musculus with 3 samples.

Results

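Glycolysis splits glucose into pyruvate through a fixed chain of cytosolic enzymes, and lactate dehydrogenase then reduces pyruvate to lactate, which returns NAD to the chain. In the embryonic cortex, dividing neural progenitors are known for a high rate of glycolysis, and neurons lean more on mitochondrial respiration. The genes described here encode an enzyme of 10 of these steps. They are Hk2, Gpi1, Aldoa, Tpi1, Gapdh, Pgk1, Pgam1, Eno1, Pkm and Ldha, 10 of 55450 annotated genes and of 21938 protein-coding genes on chromosomes 1 to 19, X and Y. They were chosen by name and pathway, by a rule that uses no measured value, though with earlier results of these data known. Phosphofructokinase, the remaining step, is encoded by other genes and is described after them.

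NF-Y is a trimer of NF-YA, NF-YB and NF-YC that binds the sequence CCAAT, usually in promoters. H3K4me3, trimethylation of lysine 4 on histone H3, marks promoters that are active or poised. The series holds 3 ChIP-seq libraries from mouse embryonic brain cortex at E13.5, namely an input without antibody, NF-Y-ChIP with an antibody to NF-YC, and H3K4me3-ChIP. No genetic change or treatment is given for any of them. The NF-Y-ChIP list held 733 narrow peaks (median 224 bp, 6.75-fold) and the H3K4me3-ChIP list 18816 broader ones (median 1098 bp, 27.5-fold). Fold enrichment is the signal at the summit, the highest point of a peak, over the local background. Each antibody was used for 1 library, so differences below have no replicate error and no p-value, and intervals cover counting error only. Sequencing depth is unknown because read counts are not in the lists, and a gene without a listed peak is not shown to be free of the protein or mark. Of the genes that mark cells of the developing cortex, 9 of 9 had an H3K4me3-ChIP peak at the promoter, as did 0 of 6 markers of liver, muscle, pancreas, gut and blood.

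None of the glycolytic genes had an NF-Y-ChIP peak. Counting as targets the genes that a peak touched, or whose 5 kb upstream it touched, 0 of 10 were targets, beside 3.69% of all protein-coding genes (809 of 21938). Counting instead summits no farther than 1 kb from an annotated start, again 0 of 10 had one, beside 5.03% of the protein-coding genes that carried H3K4me3 at their promoter (692 of 13767). At such low shares a count of 0 among 10 genes lies near the background, and it is no result about glycolytic genes as a group. H3K4me3-ChIP peaks reached within 1 kb of a start in 10 of 10 genes, beside 62.8% of protein-coding genes.

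The nearest NF-Y-ChIP summit lay at a median of 343 kb from the main start of the 10 genes. The main start is that of the leading protein-coding transcript. Over 13763 protein-coding genes with promoter H3K4me3 the median was 686 kb. Tpi1 came closest, with a summit 15.8 kb upstream, in a peak of 7.40-fold enrichment ranked 300 of 733. That summit sat 78 bp upstream of a start of Cdca3, a cell cycle gene. Eno1 followed, with a summit 44.5 kb downstream at the Rere promoter (4.64-fold), and then Pkm, with a summit 78.3 kb upstream at Celf6 (5.47-fold). Each of these 3 summits was thus within 1 kb of a start of another gene. Cdca3, Rere and Celf6 are named here because of where these peaks fell, after the values were seen. For the other members the distance ran from 175 kb for Pgam1 to 2646 kb for Pgk1. The closest summit to Gapdh, at 336 kb, was the same Cdca3 peak, which lies between Tpi1 and Gapdh on chromosome 6.

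The H3K4me3-ChIP peaks of the glycolytic genes were of ordinary height and mostly wide. Their median fold enrichment was 41.9 (interquartile range 32.2 to 51.1, n = 10), beside 39.9 (25.7 to 52.7) over 13767 marked protein-coding genes, and 6 of 10 were above that median. Their median width was 2310 bp (1602 to 2768), beside 1404 bp (1029 to 1864), and 9 of 10 were above that median. The peaks of 6 genes, Hk2, Aldoa, Gapdh, Eno1, Pkm and Ldha, were wider than the upper quartile of marked genes. The glycolytic genes also had more annotated starts, with a median of 10 beside 5, and the part of this in the widths was not tested.

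**Figure D1:**
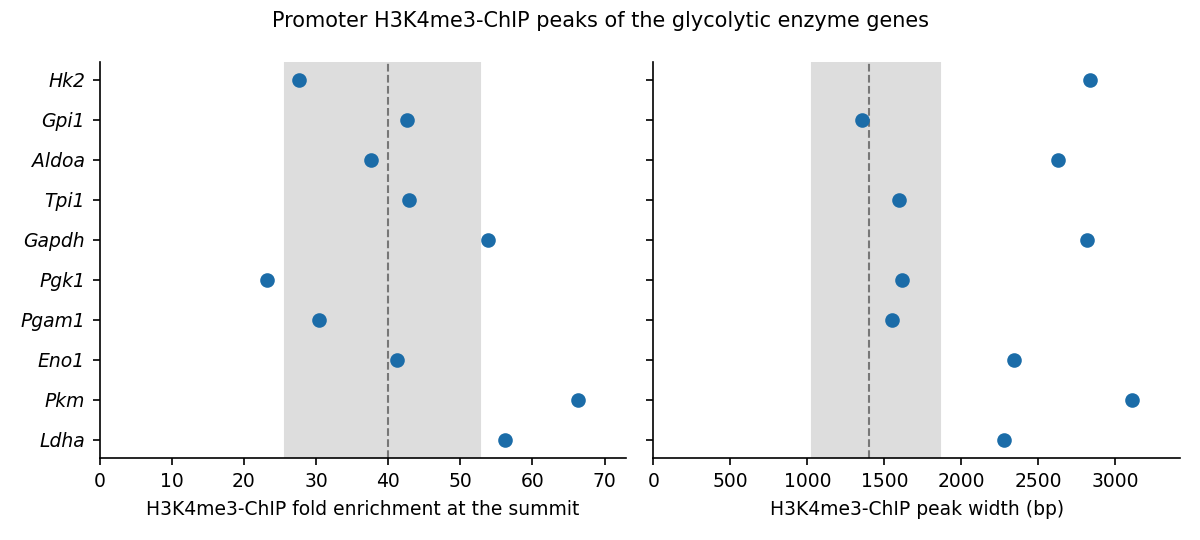
H3K4me3-ChIP fold enrichment (left, no unit) and peak width in bp (right) of the promoter peak of each glycolytic gene, in pathway order; points are single peaks of 1 library, the dashed line is the median and the grey band the interquartile range of 13767 marked protein-coding genes. Fold enrichment spreads on both sides of the median of 39.9, from 23.2 for Pgk1 to 66.3 for Pkm, while only Gpi1 lies below the median width of 1404 bp.

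The first steps take up and rearrange the sugar. Hk2, hexokinase 2, which phosphorylates glucose (chromosome 6, 82725025 to 82774454, minus strand, GRCm38), had one of the lower peaks, 27.7-fold, but one of the wider, at 2835 bp. Its summit lay 879 bp inside the gene, in intron 1. Gpi1, which turns glucose phosphate into fructose phosphate (chromosome 7, 34201330 to 34230336, minus strand), had a 42.6-fold peak of 1358 bp, the narrowest of the group, and a separate peak of 14.6-fold with its summit 4120 bp upstream. Hk2 and Gpi1 thus lay near opposite ends of the group in width, while the height of Gpi1 was close to the group median. Aldoa, the aldolase that splits fructose bisphosphate (chromosome 7, 126795234 to 126800751, minus strand), had a 37.7-fold peak of 2626 bp that covered 47.6% of the gene. That peak took in 10 of 12 annotated Aldoa starts and also a start of the neighbouring gene Fam57b, so its signal cannot be assigned to Aldoa alone. Tpi1, the triose phosphate isomerase (chromosome 6, 124810586 to 124814296, minus strand), had a 42.9-fold peak of 1597 bp over 38.8% of the gene.

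The later steps recover ATP and end in lactate. Gapdh, which oxidises glyceraldehyde phosphate and is widely used as a reference gene (chromosome 6, 125161715 to 125166467, minus strand), had a 53.9-fold peak of 2815 bp. This peak covered 57.2% of the short gene, the largest part among the 10, and its summit was in intron 2. Pgk1, phosphoglycerate kinase, the first ATP-yielding enzyme (chromosome X, 106187100 to 106203699, plus strand), had the lowest peak of the group, 23.2-fold, over 1616 bp. Pgam1, phosphoglycerate mutase (chromosome 19, 41911923 to 41918660, plus strand), had a 30.4-fold peak of 1552 bp and, on either side, peaks of 13.9-fold (297 bp) and 4.14-fold (251 bp). Pgk1 and Pgam1 thus joined Hk2 below the interquartile range of the group in fold enrichment.

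Eno1, enolase (chromosome 4, 150236721 to 150248879, plus strand), had a 41.2-fold peak of 2340 bp with its summit in intron 1. Pkm, which makes pyruvate and ATP from phosphoenolpyruvate (chromosome 9, 59656368 to 59679375, plus strand), had both the highest and the widest peak of the group, 66.3-fold over 3109 bp. It ranked 1025 of 18816 peaks, above 91.4% of marked genes in height and above 96.5% in width. Ldha, lactate dehydrogenase A (chromosome 7, 46841475 to 46855627, plus strand), had a 56.3-fold peak of 2280 bp. Pkm and Ldha, which act at the end of the chain, and Gapdh had the 3 highest peaks, and all of them lay above the upper quartile of marked genes.

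**Figure D2:**
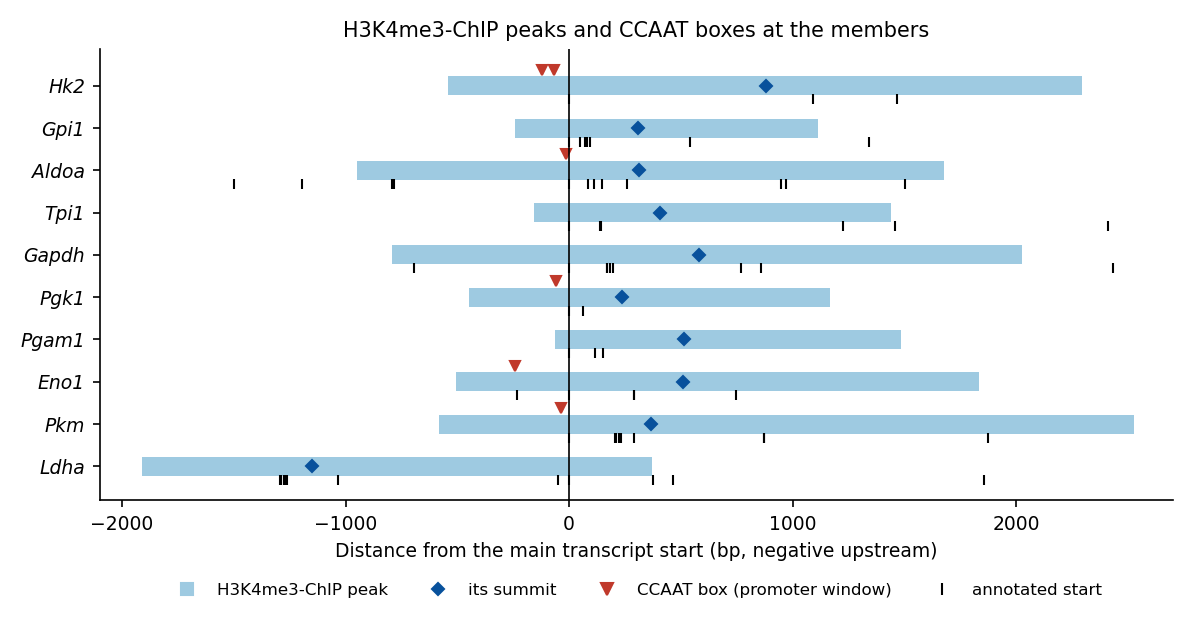
Extent of the promoter H3K4me3-ChIP peak (bars) and its summit (diamonds) at each glycolytic gene, as distance in bp from the main transcript start along the direction of the gene; ticks are annotated starts and triangles CCAAT boxes in the promoter window. Every bar covers the main start, and in 9 of 10 genes the summit lies downstream of it, while the Ldha summit lies 1149 bp upstream.

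Measured from the main start, the position of the marks was alike in 9 of the 10 genes. Their summits lay between 235 bp (Pgk1) and 879 bp (Hk2) downstream of the main start, in intron 1, or intron 2 for Gapdh. The group median was 385 bp downstream, beside 200 bp over marked genes. These distances depend on the start chosen. From the nearest annotated start of the same gene, the summits of the 9 genes ran from -212 bp for Hk2 to 361 bp for Pgam1 (negative upstream). For Gapdh the value was -190 bp. The part of the number of starts in these distances was not tested. Ldha was the exception. Its summit was 1149 bp upstream of the main start but inside the gene, 112 bp after another annotated Ldha start. The peak held 9 of 13 Ldha starts, and the main start itself lies 5656 bp after the 5′ end of the gene model. The peak covered the main start in 10 of 10 genes, and 8 of 10 had a single peak by the 5 kb rule, the others being Gpi1 and Pgam1.

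CCAAT boxes were present at 5 of the 10 promoters, although no NF-Y-ChIP peak was listed there. CCAAT was searched on both strands, so also as ATTGG, in a window from 250 bases before to 50 after the main start. The window held at least 1 box in 5 of 10 glycolytic genes, beside 38.4% of all protein-coding genes and 37.4% of marked ones, so this count too lies near the background. Hk2 had 2 boxes and Aldoa, Pgk1, Eno1 and Pkm had 1 each. Gpi1, Tpi1, Gapdh, Pgam1 and Ldha had none.

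The 200 bases before the main start are shown for the 4 genes with a box there, since these stretches hold the letters NF-Y reads. They run 5′ to 3′ along the gene and are from GRCm38, chr6:82774455-82774654 (minus strand), chr7:126799255-126799454 (minus), chrX:106186900-106187099 (plus) and chr9:59656168-59656367 (plus). Capitals mark CCAAT or, where the box lies on the opposite strand, ATTGG. None of these bases is in an exon of the gene. Those of Hk2, Pgk1 and Pkm precede the gene, and those of Aldoa are intronic to transcripts that start farther upstream.
Hk2: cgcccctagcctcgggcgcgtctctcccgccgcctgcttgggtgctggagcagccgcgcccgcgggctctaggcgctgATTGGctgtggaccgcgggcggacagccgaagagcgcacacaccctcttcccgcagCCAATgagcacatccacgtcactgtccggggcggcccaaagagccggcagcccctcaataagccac
Aldoa: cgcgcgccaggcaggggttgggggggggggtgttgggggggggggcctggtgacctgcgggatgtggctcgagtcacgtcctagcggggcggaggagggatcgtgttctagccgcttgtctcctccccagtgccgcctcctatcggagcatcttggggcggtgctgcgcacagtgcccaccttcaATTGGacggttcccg
Pgk1: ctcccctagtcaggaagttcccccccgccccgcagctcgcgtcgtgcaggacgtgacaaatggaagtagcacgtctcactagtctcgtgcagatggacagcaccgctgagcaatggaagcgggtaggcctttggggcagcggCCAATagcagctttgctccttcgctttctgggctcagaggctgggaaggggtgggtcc
Pkm: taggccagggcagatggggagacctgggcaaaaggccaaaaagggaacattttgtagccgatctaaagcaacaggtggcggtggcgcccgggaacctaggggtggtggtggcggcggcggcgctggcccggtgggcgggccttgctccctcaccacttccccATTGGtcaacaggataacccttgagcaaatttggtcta

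Hk2 had a pair of boxes in opposite orientation, with first bases 122 and 66 bases upstream of the start and 56 bases apart. They were followed, on their own strand, by C and by G. Pkm had 1 box, 38 bases upstream on the opposite strand and followed by G. At the main start, only Hk2 and Pkm thus matched the longer form CCAATC or CCAATG, which was found in 29.3% of marked promoters. The Pgk1 box lay 58 bases upstream and was followed by A. The Aldoa box lay 15 bases upstream, on the opposite strand, followed by T. In Eno1 the box was 242 bases upstream of the main start, just before the 5′ end of the gene model, and it is not in the stretch shown for the others.

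The boxes found depended on the start. At Eno1, transcripts that start 288 and 291 bases downstream had a pair of boxes in their windows, 118 and 96 bases before the first of these starts. The second box of this pair was followed by G, so it had the longer form. Eno1 starts in the RefSeq annotation, 245 and 272 bases downstream, each had 2 boxes, as had a RefSeq start of Pkm 208 bases downstream. At Pkm, starts 205 to 291 bases downstream had another box, 80 bases before the start at 208. Gapdh, without a box at its main start, had one 7 bases before the start of transcripts beginning 694 bases upstream. Tpi1 had boxes only at starts 1226 bases or more downstream. Counting every annotated start inside the H3K4me3-ChIP peak, 7 of 10 genes had a box, beside 41.9% of marked genes. Gpi1, Pgam1 and Ldha were still without one. The classes of genes that follow, by number, place and form of box, use the main start only.

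Most marked genes with boxes had no NF-Y-ChIP summit either. Among marked genes with 1 box, the class of Aldoa, Pgk1, Eno1 and Pkm, 164 of 3295 had a summit near a start, within 1 kb, or 4.98% (Wilson 95% interval 4.29 to 5.77). With 2 boxes, the class of Hk2, the share was 16.1% (194 of 1208, 14.1 to 18.2), and with 3 or more, a class with no glycolytic gene, it was 34.2% (219 of 641, 30.6 to 37.9). Without a box it was 1.33% (115 of 8623, 1.11 to 1.60), and this class held the remaining 5 genes. The share was thus higher with each further box, with intervals that did not overlap, and 9 of 10 glycolytic genes fell in the classes with 0 or 1 box, beside 86.6% of marked genes, so their place is near the background. Genes are not replicates, and these intervals treat them as independent.

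**Figure D3:**
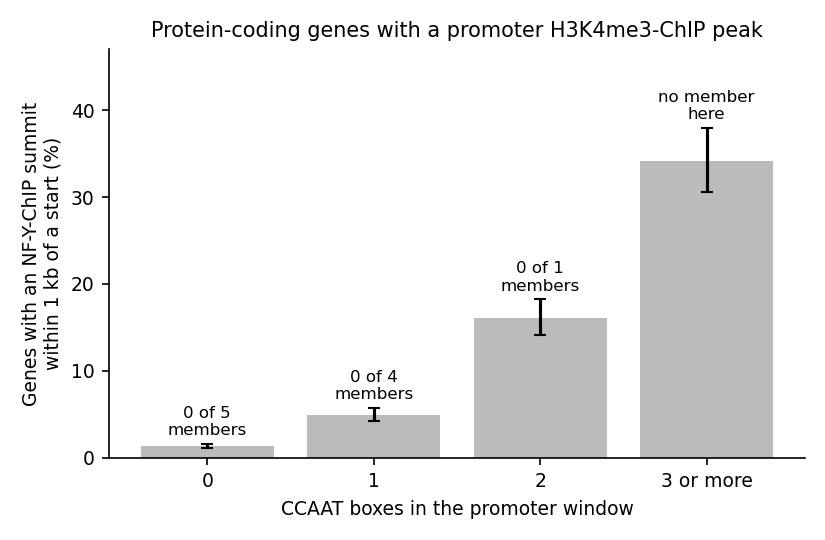
Share of marked protein-coding genes (percent) that had an NF-Y-ChIP summit no farther than 1 kb from a start, by the number of CCAAT boxes in the promoter window; bars start at 0 and lines are Wilson 95% intervals. The share goes from 1.33% without a box to 34.2% with 3 or more, and the numbers of glycolytic genes above the bars are 0 of 5, 0 of 4 and 0 of 1, with no member in the last class.

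The share by the place of the box was read with the number of boxes held fixed, since genes with several boxes are more likely to have one in any given range. Among marked genes with a single box, 6.26% had an NF-Y-ChIP summit where the box centre lay 100 to 31 bases upstream of the start, the class of Pgk1 and Pkm (71 of 1135, Wilson 95% interval 4.99 to 7.82). The share was 4.31% where the box lay elsewhere in the window, the class of Aldoa and Eno1 (93 of 2160, 3.53 to 5.25). These intervals overlapped. Over all genes with boxes, whatever their number, the shares were 16.7% with a box in this range, as also in Hk2, and 6.21% with boxes only elsewhere. Per box, 40.4% of those at genes with a summit and 35.8% of those at genes without lay in the range. By the form of the box, again among marked genes with a single box, 6.17% had a summit where it was the longer form, the class of Pkm (143 of 2317, 5.26 to 7.23). The share was 2.15% where the box had another form, the class of Aldoa, Pgk1 and Eno1 (21 of 978, 1.41 to 3.26), and these intervals did not overlap.

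Other promoter motifs were searched in the same 300 bases on both strands. The hypoxia core, ACGTG or GCGTG, which is the core letters of the element bound by HIF1, was present in 7 of 10 genes, beside 62.9% of marked and 48.4% of all protein-coding genes. Eno1 had 5 copies, Gapdh, Pgam1 and Ldha 3, Hk2 and Pgk1 2, and Aldoa 1. The GC box GGGCGG, read by Sp1, was present in 7 of 10, beside 65.0% of marked genes, with 5 copies in Pgk1. Both counts lie near the share in marked genes. The E-box CACGTG, which contains ACGTG and is read by Myc and by clock factors, was present in 0 of 10, beside 9.78%. TATAAA was found in Pkm only, beside 7.02% of marked genes. Tpi1 held none of the motifs searched, and Gpi1 held only GC boxes. The median GC content of the windows was 63.3%, beside 61.3% over marked genes, with a range from 55.3% in Tpi1 to 73.7% in Eno1. A match describes the letters only and does not show a binding site.

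Phosphofructokinase, which commits the sugar to glycolysis, is encoded by Pfkl, Pfkm and Pfkp. All 3 had an H3K4me3-ChIP peak, beside 62.8% of protein-coding genes, and 0 of 3 an NF-Y-ChIP peak, beside 3.69%. Counts over 3 genes are no result about phosphofructokinase genes as a group. The fold enrichment was 45.2 for Pfkl and 28.2 for Pfkp. For Pfkm it was 49.2, in a peak at another annotated start with its summit 15388 bp upstream of the main start, where the closest start of a protein-coding gene was that of Senp1.

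Isozymes of the same steps differed from the glycolytic genes above in how many were marked. Of 19 isozymes, 9 had a promoter H3K4me3-ChIP peak, beside 62.8% of protein-coding genes, and 0 had an NF-Y-ChIP peak, beside 3.69%. These counts carry no test. Isozymes without an H3K4me3-ChIP peak included genes known from other tissues, such as Pklr of liver, Pgam2 of muscle, and Gapdhs, Pgk2 and Ldhc of male germ cells. Hk3, Hkdc1, Eno1b and Ldhal6b were also without one. Among aldolases, Aldoc, a brain form, had a peak of only 3.88-fold and 224 bp, against 37.7-fold and 2626 bp for Aldoa. Among enolases, Eno2, the neuronal form, had 20.9-fold over 853 bp, against 41.2-fold over 2340 bp for Eno1. Both brain isozymes had lower and narrower peaks than the glycolytic gene of the same step. Ldhb had 29.7-fold over 1716 bp, against 56.3-fold over 2280 bp for Ldha. Hk1 had 23.5-fold, close to the 27.7-fold of Hk2, with its summit 39463 bp downstream of the main start. Adpgk had 35.4-fold over 1044 bp, against 27.7-fold over 2835 bp for Hk2. Bpgm had 44.9-fold over 1409 bp, against 30.4-fold over 1552 bp for Pgam1. The peaks of Adpgk and Bpgm were thus higher but narrower than those of the glycolytic gene. Eno4 had 32.9-fold, below Eno1. The 66.9-fold peak counted for Eno3, the muscle enolase, lay outside the gene with its summit closest to a start of Pfn1. These are differences between single peaks of 1 library, without a test.

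Over 7 lists of genes from steps and pathways around glycolysis, 6 of 59 were targets by the 5 kb rule, beside 3.69% of protein-coding genes. Of these, 5 were among 13 genes of pyruvate entry into mitochondria and its control, and 1, Rpia, the ribose phosphate isomerase, was among 7 of the pentose phosphate pathway. Mpc1 and Mpc2 encode the subunits of the mitochondrial pyruvate carrier, Pdk2 a kinase that turns pyruvate dehydrogenase off, and Pdp1 and Pdp2 the phosphatases that turn it on. The genes of pyruvate dehydrogenase itself, Pdha1, Pdhb, Dlat, Pdhx and Dld, had none. The other kinase genes of the list, Pdk1, Pdk3 and Pdk4, had none either. These lists were written with earlier results of these data known, and their counts carry no test.

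**Figure D4:**
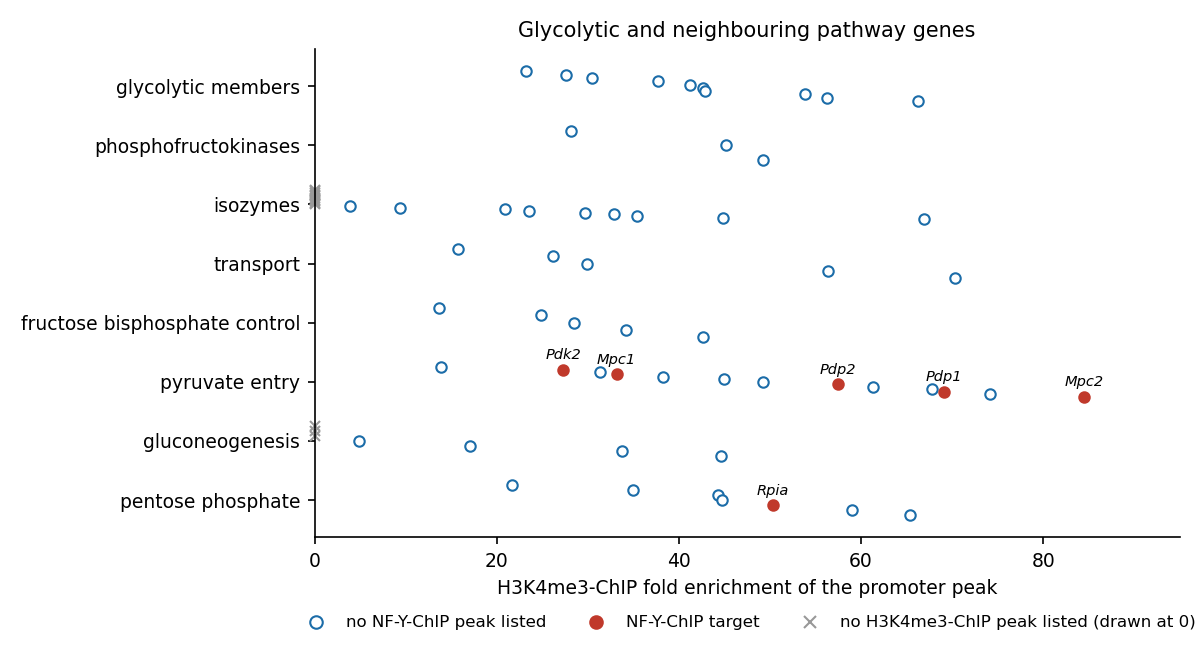
H3K4me3-ChIP fold enrichment (no unit) of the promoter peak of each gene, by pathway list; open circles have no NF-Y-ChIP peak listed, filled circles are NF-Y-ChIP targets and crosses, drawn at 0, have no promoter H3K4me3-ChIP peak. The 10 glycolytic genes are all open circles between 23.2 and 66.3, and the 6 filled circles are Mpc1, Mpc2, Pdk2, Pdp1, Pdp2 and Rpia.

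Each of the 6 NF-Y-ChIP summits lay within 74 bp of the main start. Mpc2 had the strongest, 9.56-fold and ranked 145 of 733, 5 bp upstream of its start. A start of Dcaf6 also lay within 1 kb of that summit. Pdp1 had 6.50-fold at 74 bp upstream, Mpc1 5.56-fold at 39 bp upstream and Pdp2 4.88-fold at 16 bp upstream. Rpia had 4.63-fold at 16 bp downstream, and Pdk2 had the weakest, 3.94-fold at 64 bp upstream. Except for that of Mpc2, all were below the median NF-Y-ChIP fold enrichment of 6.75. CCAAT lay within 50 bases of the summit in 5 of the 6, and in Rpia there was none.

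The 200 bases before the start of 4 of these genes are shown for comparison with the glycolytic promoters above, as promoters where CCAAT boxes and an NF-Y-ChIP summit occurred together. They were picked for their boxes, and of the other targets Mpc2, with the strongest summit, had 1 box in its window and Rpia had 0. They are chr17:8283562-8283761 (plus strand), chr11:95041355-95041554 (minus), chr4:11966453-11966652 (minus) and chr8:104591251-104591450 (plus) of GRCm38, none of it exonic to the gene, with capitals as before.
Mpc1: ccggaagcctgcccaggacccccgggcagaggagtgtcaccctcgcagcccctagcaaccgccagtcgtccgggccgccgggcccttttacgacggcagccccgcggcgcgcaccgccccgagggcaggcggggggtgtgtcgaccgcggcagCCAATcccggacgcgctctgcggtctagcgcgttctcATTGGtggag
Pdk2: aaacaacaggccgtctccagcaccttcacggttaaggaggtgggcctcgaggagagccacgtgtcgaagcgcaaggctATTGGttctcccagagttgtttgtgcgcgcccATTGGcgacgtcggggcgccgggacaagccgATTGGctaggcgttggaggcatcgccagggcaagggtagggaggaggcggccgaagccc
Pdp1: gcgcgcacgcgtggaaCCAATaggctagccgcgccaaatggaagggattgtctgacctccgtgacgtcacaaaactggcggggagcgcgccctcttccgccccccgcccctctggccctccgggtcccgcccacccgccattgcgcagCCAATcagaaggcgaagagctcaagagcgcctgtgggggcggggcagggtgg
Pdp2: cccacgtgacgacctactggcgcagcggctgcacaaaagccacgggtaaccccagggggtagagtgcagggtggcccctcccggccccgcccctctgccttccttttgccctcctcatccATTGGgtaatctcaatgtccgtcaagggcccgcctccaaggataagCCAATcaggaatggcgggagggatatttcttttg

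Pdk2 had 3 boxes, all on the opposite strand, spaced by 32 and 31 bases. Mpc1 had boxes 47 and 10 bases upstream, and Pdp2 had boxes 80 and 34 bases upstream, in each case in opposite orientation. In Pdp1 both boxes, 184 and 52 bases upstream, were on the strand of the gene. Over all 6 targets the number of boxes in the window thus ran from 0 in Rpia to 3 in Pdk2, a range that takes in the 1 box of Aldoa, Pgk1, Eno1 and Pkm and the 2 of Hk2. The H3K4me3-ChIP fold enrichment of the 4 genes was 33.2 for Mpc1, 27.3 for Pdk2, 69.1 for Pdp1 and 57.4 for Pdp2, a range that overlaps that of the glycolytic genes.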

How the data were processed

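Cortices of E13.5 mouse embryos were used by the authors for ChIP with 1 library each of input, NF-Y-ChIP and H3K4me3-ChIP. Per the study's methods and the submitters' processing notes, reads were checked with FastQC, trimmed with Trimmomatic, aligned to GRCm38 (mm10) with Bowtie2 2.2.8, and peaks were called with MACS2 2.1.2. The authors set a p-value threshold of 0.001 for the NF-Y-ChIP list and a q-value threshold of 0.05 for the other. No peak list of the input was used here. Peak positions and the summit offset were used as deposited. The deposited fold enrichment is a ratio of the summit signal to the local background. The deposited −log10 values are those of the p-value and q-value of each peak. In the score column, also as deposited, the −log10 p-value was multiplied by 10 and rounded down in 733 of 733 peaks of one list. In the other, this held for the −log10 q-value in 18816 of 18816. The lists were assigned to NF-Y-ChIP and H3K4me3-ChIP by the rule that chose the glycolytic genes, which names both lists, and by this score. The score follows the statistic thresholded by the authors.

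Genes and transcripts were those of GENCODE M21, and sequence was from RefSeq's GRCm38.p6. Targets overlapped a peak by 1 bp or more in the gene body or the 5 kb before it. Promoter peaks were NF-Y-ChIP summits within 1 kb of any annotated start, or the H3K4me3-ChIP peak of highest fold enrichment overlapping 1 kb to either side. The main start was that of the protein-coding transcript with the best APPRIS tag, then the best support level, then the greatest length. Box positions give the first base along the gene, with the start as 0. Aldoa matched 2 gene models, and the one with more transcripts was used. Python 3.11.15, NumPy 2.4.6, pandas 2.3.3, SciPy 1.17.1, pysam 0.24.0 and matplotlib 3.10.9 were used. The motif search was tested on simulated sequences and the placement of the promoter window on fixed positions. The members and lists were chosen with earlier results of these data known. The genes named were all members, the phosphofructokinases, the isozymes (some of which are counted but not reported singly here), listed genes with an NF-Y-ChIP peak, genes starting within 1 kb of a member's summit, and others where said. Alternatives for peak strength, overlap, distance, start and motif were computed for the members' counts of targets, promoter summits, H3K4me3-ChIP peaks and CCAAT boxes and for the medians of fold enrichment and width, and not for the pathway lists, other motifs or box classes.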

Additional observations from a re-analysis of the deposited data

How the results depend on the processing

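Of 29 alternatives to the counts and medians above, 26 left the value within 1.5 times the main one or within the spread of the members. With 50 kb upstream in place of 5 kb, 1 glycolytic gene, Tpi1, became an NF-Y-ChIP target, beside 6.61% of protein-coding genes. With 500 bases to either side of the start, 8 genes had a CCAAT box, beside 69.9%, and with the longer form CCAATC or CCAATG 2 had one, beside 27.8%. From 100 bases before the start to the start, 4 had one, beside 20.3%. The other NF-Y-ChIP alternatives, with q under 0.05, the stronger 50% of peaks, an overlap of 100 bp, 1 kb upstream, summits only, the gene's 5′ end, 200 bp or 5 kb, gave 0 of 10. The H3K4me3-ChIP count was 9 with the stronger 50% of peaks (beside 45.1%) and 9 at the gene's 5′ end (beside 59.1%), and otherwise 10, the median fold enrichment 41.2 to 42.6 and the median width 2310 to 2376 bp. The alternatives with every start in the H3K4me3-ChIP peak (7 genes, beside 41.9% of marked genes) and with every RefSeq start (5 genes, beside 42.6%) were chosen after seeing the data. The planned distances of CCAAT boxes to NF-Y-ChIP summits of the members, with their alternatives, gave no value, because no member has such a peak. No paired analysis was possible because each antibody has 1 library, and for the same reason no replicate could be left out. The unknown depth limits every count of listed peaks, and the NF-Y-ChIP list is short.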

Other observations

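Genes of glucose and lactate transport and of the control of fructose bisphosphate, 5 of each, all had a promoter H3K4me3-ChIP peak. The share over protein-coding genes was 62.8%. None of these genes had an NF-Y-ChIP peak, beside 3.69% of protein-coding genes. Their median fold enrichments were 30.0 and 28.5, beside 41.9 for the glycolytic genes, with no test. Several peaks behind these medians lay far from the main start, with summits 58980 bp upstream for Slc2a3 and 60454 bp upstream for Slc16a7, or closest to a start of another gene, Apex2 for Pfkfb1 and Yod1 for Pfkfb2. These genes, and those named next, are named after their values were seen. Of 7 gluconeogenic genes, 4 had an H3K4me3-ChIP peak, beside 62.8% of protein-coding genes, with a median fold enrichment of 25.5. Of these peaks, that of Pcx (44.6-fold) had its summit 83674 bp upstream of the main start, and that of Fbp2 (4.85-fold, 178 bp) had it 2253 bp downstream. The 3 without one, Fbp1, Pck1 and G6pc, are known for their roles in liver and kidney. All 7 pentose phosphate genes and all 13 genes of pyruvate entry had one, with medians of 44.7 and 49.2. In pyruvate entry, the peaks of Mpc2 (84.5-fold) and Pdhx (61.4-fold) had summits closest to starts of other genes, Dcaf6 and Apip.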
